A study of Mus musculus with 24 samples.

Results

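The interferon-stimulated genes described here are 37 genes of mouse liver, and a gene was a member when its symbol was the gene name printed for a probe in the array files. All 37 had a probe, 51 probes of the 55681 distinct gene probes on the array, and all 37 were among the 15353 genes tested. They were split by family into 30 type I-like members and 6 gamma-like members, the guanylate-binding proteins Gbp2 and Gbp3 and the IRG GTPases Igtp, Irgm1, Iigp1 and Ifi47. Irf1, which both kinds of interferon induce, was kept apart.

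Interferons are cytokines, and cells release type I interferons on sensing viral or misplaced nucleic acid. Type I interferon signals through a receptor, JAK kinases and a complex with STAT2 and IRF9 that binds the interferon-stimulated response element (ISRE), whereas interferon gamma signals through a receptor of its own to the gamma-activated site (GAS). In liver, hepatocytes, Kupffer cells and recruited leukocytes all respond, and the response includes antiviral enzymes, RNA and DNA sensors, and the GTPases that act on intracellular pathogens.

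The arrays measured liver RNA of male mice of 3 inbred strains, aged 20 weeks, after 12 weeks on either diet, 4 samples in each of 6 groups. Livers came from WSB/EiJ, C3H/HeJ and A/J mice on a deficient diet (CFD), which had no choline or folic acid and 0.17% methionine, and from mice of the same strains on the control diet, which had methionine at 0.4%, folic acid at 2 mg/kg and choline bitartrate at 0.3%. Both diets were amino-acid-defined and iron-supplemented. WSB/EiJ is a wild-derived strain, and C3H/HeJ carries a Tlr4 mutation that blunts the response to bacterial lipopolysaccharide. No label says that each sample was a separate animal, so the p-values measure the spread between samples.

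Promoter sequences with a match are shown for members whose values are given in every strain below. RefSeq promoter windows on GRCm38.p6, from 250 bases before to 50 after a start site, were found for 26 of the 37 members. An ISRE-like pattern, GAAA followed by 2 bases of any kind and GAAA again, read on both strands, was in a window of 15 of these 26 members (57.7%), against 3.99% of all 27025 genes with a window. It was in 11 of 20 type I-like and 4 of 5 gamma-like members with a window. The letters TTCNNNGAA, a GAS-like pattern read on both strands, were in 7 of the 26 (26.9%), against 9.55% of those genes. Matches of both patterns overlapped in 1 member, Bst2. Capitals mark the matches below, and every stretch lies upstream of its annotated start.
Ifit1, chr19:34640770-34640828, plus strand, with 2 ISRE-like matches: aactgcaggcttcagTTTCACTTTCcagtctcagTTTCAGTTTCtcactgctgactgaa
Isg15, chr4:156200860-156200911, minus strand, with 3 overlapping ISRE-like matches: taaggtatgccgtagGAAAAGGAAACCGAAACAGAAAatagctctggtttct
Oas1a, chr5:120907526-120907638, minus strand, with 1 GAS-like and 2 overlapping ISRE-like matches: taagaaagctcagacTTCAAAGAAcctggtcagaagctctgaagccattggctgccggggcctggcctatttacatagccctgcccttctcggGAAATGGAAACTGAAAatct
Gbp2, chr3:142620589-142620628, plus strand, with 1 ISRE-like match: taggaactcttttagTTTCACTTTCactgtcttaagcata
Igtp, chr11:58199496-58199546, plus strand, with 1 GAS-like and 1 ISRE-like match: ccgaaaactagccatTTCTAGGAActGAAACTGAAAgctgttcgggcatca
Irf1, chr11:53769909-53769948, plus strand, with 1 GAS-like match: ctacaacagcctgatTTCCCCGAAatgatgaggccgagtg
Stat2, chr10:128270261-128270300, plus strand, with 1 ISRE-like match: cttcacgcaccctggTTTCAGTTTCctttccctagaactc
Ifit1, Isg15, Oas1a and Gbp2 are members that rose in at least 1 strain, whereas Igtp and Stat2 carry the same pattern and rose in none at the scaling used below. A match is a description of letters and not a bound site.

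Values below are normalized intensities, processed spot signals scaled so that the 75th percentile of every array is 203. The share of spots with a signal well above background ran over 44.4% to 56.0% by array, and no gene spot was saturated. All 12 hepatocyte markers were above background in every group. The A/J arrays differed among themselves in how far they shifted by diet. Over the 6065 genes called in the same direction in C3H/HeJ and WSB/EiJ, the mean shift towards the CFD direction was 0.16 on A/J CFD array 4, against 0.24 on A/J control array 4, while A/J CFD arrays 1 to 3 were at 0.55, 0.36 and 0.61. The genes were chosen from the calls in C3H/HeJ and WSB/EiJ, so this measure cannot compare A/J with these strains. The count of A/J calls is therefore given with and without both arrays numbered 4. Since both were picked by their diet shift, leaving them out favours a wider A/J diet difference, so a higher count is no further result. Fewer cells of a type and less RNA per cell cannot be told apart in bulk liver.

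On the CFD diet, the antiviral type I-like genes were higher in WSB/EiJ livers, with a median log2 change of 2.67 over the 30 members. Of all 37 members, 27 rose and 3 fell in WSB/EiJ (24.6% of all genes tested rose and 47.8% fell, 72.4% in either direction). In C3H/HeJ, 17 rose and 2 fell (18.2% and 27.3% of all genes, 45.5% in either direction). In A/J, 6 rose and 0 fell (6.01% and 4.42% of all genes, 10.4% in either direction). The median log2 change of the members was 2.32 in WSB/EiJ, 0.54 in C3H/HeJ and 0.07 in A/J, beside medians over all genes of -0.29, -0.12 and -0.05. Without both A/J arrays numbered 4, 13 members rose in A/J, their median was 0.50 and 15.8% of all genes were called in either direction. The 6 A/J calls were kept without both arrays, but these were picked by their diet shift, so more and larger A/J changes were favoured. Without A/J CFD array 4 alone, 10 members rose and 13.6% of all genes were called in either direction. Of the members that rose, 26 of 27 in WSB/EiJ, all 17 in C3H/HeJ and 4 of 6 in A/J had groups that did not overlap. Of all genes tested, 22.2%, 14.1% and 4.87% rose with groups that did not overlap, which was 90.1%, 77.3% and 81% of the genes that rose. Oas1g and Oas3 were kept for testing only because all 4 WSB/EiJ CFD arrays were well above background, so their rise there was favoured by that choice. Over the other 35 members, 25 rose and 3 fell in WSB/EiJ, 16 rose and 2 fell in C3H/HeJ and 5 rose in A/J. Log2 changes are CFD minus control and are given ± SE, and calls are from limma, with Benjamini-Hochberg adjusted p over all genes under 0.05. Scaling to spike-in spots in place of the 75th percentile moved the median of all genes to 0.67 in WSB/EiJ, 0.31 in C3H/HeJ and 0.29 in A/J. The share of called genes that were higher was then 89.7%, 89.0% and 94.8%, against 34.0%, 40.0% and 57.6% at the 75th percentile, and 35, 23 and 10 members rose, with 74.5%, 42.4% and 23.9% of all genes called. That scaling added 0.94 to 0.98 to the log2 change of every gene in WSB/EiJ. Under the settings other than that scaling, 11 of the 30 values called in WSB/EiJ, 3 of 19 in C3H/HeJ and 2 of 6 in A/J moved by over 1.5 times, most often lower under normexp background correction with quantile normalization.

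**Figure D1:**
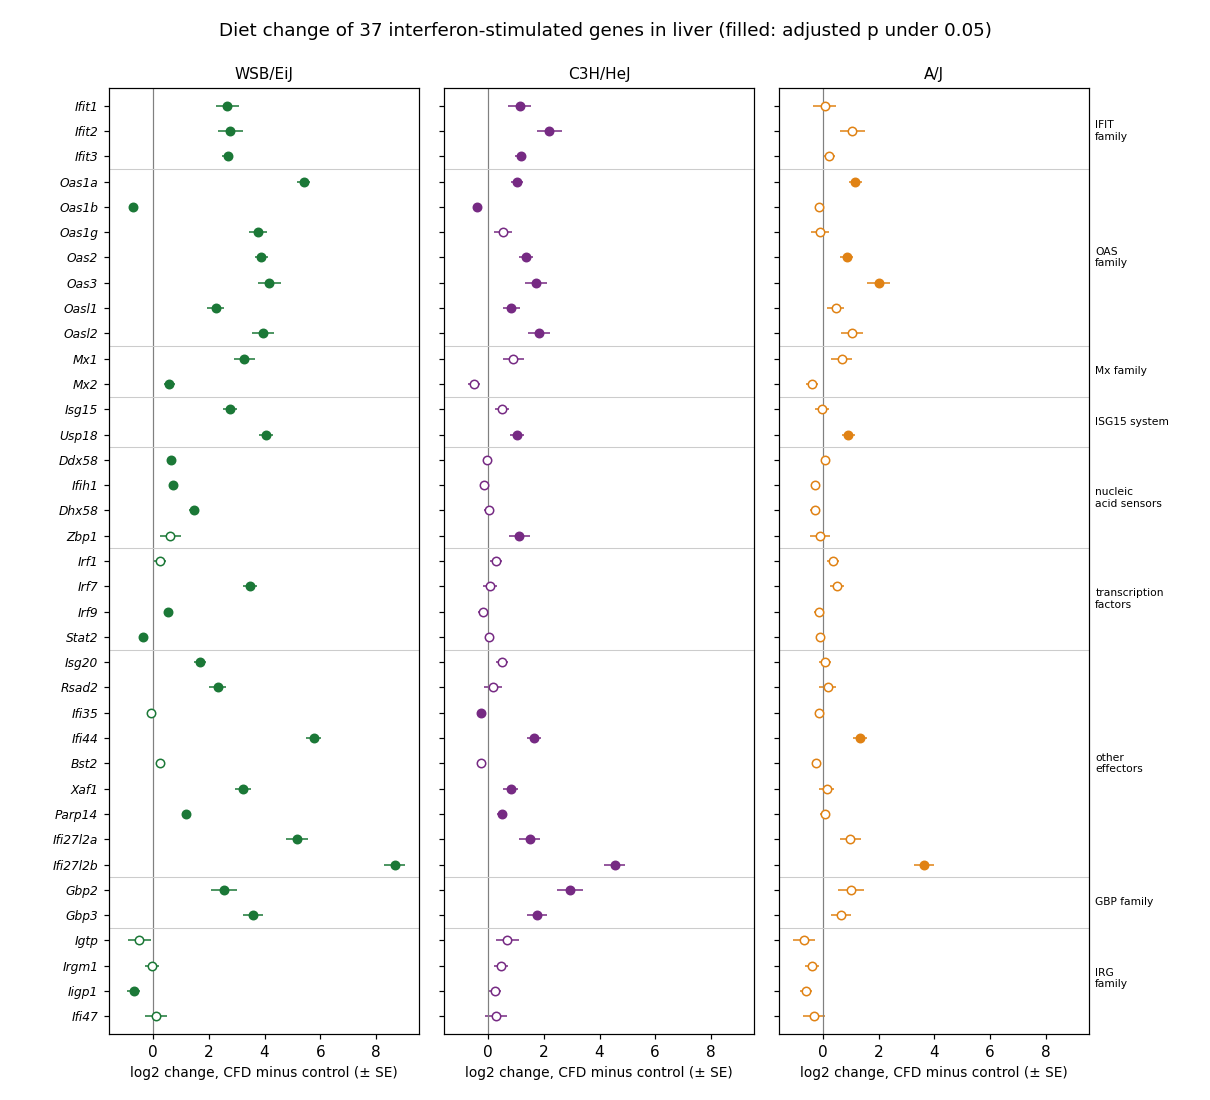
Log2 change on the diet (CFD minus control, ± SE, n = 4 arrays a group) of the 37 members in WSB/EiJ, C3H/HeJ and A/J, ordered by family, with filled points for adjusted p under 0.05. Nearly all filled points lie to the right of 0 in WSB/EiJ, where Ifi27l2b reaches 8.67, and 6 points are filled in A/J.

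Ifi27l2b and Ifi27l2a, small interferon-induced proteins of mitochondrial and nuclear membranes, lie close together on chromosome 12 and were among the 5 members with the largest rises in WSB/EiJ. In the mm9 coordinates of the array files, the Ifi27l2b probe lies at chr12:104689132-104689191 and the Ifi27l2a probe at chr12:104680394-104680453, both on the minus strand. Ifi27l2b had 11900, 14000, 13000 and 13300 in WSB/EiJ CFD livers, against 47.1, 20.4, 30.8 and 35.8 in WSB/EiJ control livers. In C3H/HeJ it had 9430, 10200, 7150 and 4370 on CFD, against 353, 307, 376 and 245 on control. In A/J it had 2780, 1360, 3610 and 687 on CFD, against 125, 171, 119 and 159 on control. Every CFD array was above every control array of its strain. The log2 change was 8.67 ± 0.37 in WSB/EiJ, 406-fold (adjusted p = 1.33e-12). It was 4.55 ± 0.37 in C3H/HeJ (adjusted p = 4.49e-08) and 3.62 ± 0.37 in A/J (adjusted p = 5.11e-06). Spike-in scaling apart, the WSB/EiJ change ran over 7.19 to 8.97 by setting (146-fold to 500-fold), and the A/J change over 2.80 to 4.13, with the lowest value of each for the mean of both probes of the gene. The second probe was dim, at 284 to 308 in WSB/EiJ CFD livers, against 3.21 to 9.83 in WSB/EiJ control livers. It was well above background on 0, 2 and 1 of the 4 control arrays of WSB/EiJ, C3H/HeJ and A/J, so no fold is given for it. Ifi27l2a had 16500, 13300, 11300 and 12400 in WSB/EiJ CFD livers, against 449, 274, 362 and 416 in WSB/EiJ control livers, a log2 change of 5.17 ± 0.38 (adjusted p = 7.71e-10). It rose by 1.49 ± 0.38 in C3H/HeJ (adjusted p = 0.00388), and its A/J value of 0.98 ± 0.38 did not pass (adjusted p = 0.108). Whether the probes of these related genes bind each other's RNA was not tested.

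Ifi44, an interferon-induced protein with antiviral activity, was dim in WSB/EiJ control livers, and its probe lies at chr3:151394035-151394094 on the minus strand (mm9). It had 994, 923, 1320 and 742 in WSB/EiJ CFD livers, against 16.9, 19.2, 15.2 and 21 in WSB/EiJ control livers. A/J livers had 296, 244, 276 and 171 on CFD, against 85.4, 113, 59 and 153 on control. The groups did not overlap in either strain, and the log2 changes were 5.76 ± 0.26 (54.3-fold, adjusted p = 2.44e-12) and 1.32 ± 0.26 (adjusted p = 0.00273). C3H/HeJ livers ranged over 312 to 497 on CFD, against 103 to 198 on control, a change of 1.64 ± 0.26 (adjusted p = 6.49e-05). The WSB/EiJ value was 3.85 under normexp with quantile normalization (14.4-fold), and at most 5.92 in the other settings, spike-in scaling apart.

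The OAS family makes the second messenger that activates RNase L, which degrades viral and cellular RNA, and its 7 members lie on chromosome 5. In WSB/EiJ 6 rose and Oas1b fell, in C3H/HeJ 5 rose and Oas1b fell, and in A/J 3 rose. All 3 counts include Oas3, and the WSB/EiJ count also Oas1g, whose rises in WSB/EiJ were favoured by the background filter. Oas1a had 22700, 21400, 27000 and 19200 in WSB/EiJ CFD livers, against 600, 464, 498 and 569 in WSB/EiJ control livers. C3H/HeJ livers had 5390, 5350, 4530 and 5020 on CFD, against 2470, 2090, 3040 and 2380 on control. Its A/J values were 2440, 1940, 2330 and 1210 on CFD, against 802, 1240, 524 and 1030 on control. The groups were apart in WSB/EiJ and C3H/HeJ, while A/J CFD array 4 lay below 1 of the A/J control arrays. The log2 change was 5.40 ± 0.22 in WSB/EiJ (42.3-fold, adjusted p = 6.1e-13), 1.04 ± 0.22 in C3H/HeJ (adjusted p = 0.00103) and 1.16 ± 0.22 in A/J (adjusted p = 0.00229). The probe also lists the Oas1g transcript, but a second probe that lists the Oas1a transcript alone gave 5.65, 1.03 and 0.99.

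Oas2 had 608, 577, 803 and 514 in A/J CFD livers, against 341, 390, 226 and 467 in A/J control livers, a change of 0.84 ± 0.25 (adjusted p = 0.0329). Its A/J groups did not overlap, but the call was lost without A/J control array 1 or 3 or CFD array 1, 2 or 3 (adjusted p up to 0.132 over all settings). Oasl2, an OAS-like protein with a ubiquitin-like domain, had 610, 547, 423 and 257 in C3H/HeJ CFD livers, against 137, 49.7, 226 and 144 in C3H/HeJ control livers, a change of 1.84 ± 0.39 (adjusted p = 0.000965). Oasl1, which restrains Irf7 translation in mice, rose by 2.25 ± 0.30 in WSB/EiJ and 0.84 ± 0.30 in C3H/HeJ (adjusted p = 1.76e-06 and 0.0307), and the C3H/HeJ call was lost without control array 2 or CFD array 2 or 4. Oas3 was not well above background on any control array, and on 3 of 4 CFD arrays each in C3H/HeJ and A/J it was. It was at least 5.35-fold higher on CFD in WSB/EiJ, at least 1.53-fold in C3H/HeJ and at least 1.48-fold in A/J, against the lowest signal well above background. Oas1g was well above background in WSB/EiJ CFD livers only, at least 3.25-fold over WSB/EiJ control livers. Since both genes were tested only because of their WSB/EiJ CFD level, these folds are a description and no p is given. Its probe shares the Oas1a transcript and its other probe was above background on 0 arrays, so the Oas1g value is uncertain.

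Oas1b, known in mice for resistance to flaviviruses, was the OAS member that fell. It ranged over 15600 to 17300 in WSB/EiJ CFD livers, against 25500 to 29600 in WSB/EiJ control livers, a log2 change of -0.73 ± 0.11 (adjusted p = 1.03e-05), and in C3H/HeJ the change was -0.39 ± 0.11 (adjusted p = 0.00947). In WSB/EiJ the other 2 probes of the gene gave -0.91 and -0.24. Its sign in both strains turned under scaling to the spike-in spots and under normexp background correction with quantile normalization. The rises of Oas1a and Oas2 in WSB/EiJ kept theirs.

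The IFIT proteins bind viral RNA and block its translation, and their 3 genes lie together on chromosome 19. All 3 rose in WSB/EiJ and in C3H/HeJ and none passed in A/J. Ifit1 had 752, 748, 1090 and 573 in WSB/EiJ CFD livers, against 126, 138, 87.8 and 145 in WSB/EiJ control livers. Its C3H/HeJ values were 311, 348, 328 and 312 on CFD, against 179 ± 103 on control (SD, n = 4), with control array 2 the lowest at 46.4. In A/J it had 567, 390, 370 and 162 on CFD, against 291, 315, 268 and 456 on control. The A/J groups overlapped widely, with both the highest and the lowest A/J array on CFD. The log2 change was 2.66 ± 0.42 in WSB/EiJ (adjusted p = 1.08e-05), 1.14 ± 0.42 in C3H/HeJ (adjusted p = 0.0313) and 0.06 ± 0.42 in A/J (adjusted p = 0.94). The C3H/HeJ call was lost without control array 2, and likewise without CFD array 1, 2 or 3 (adjusted p up to 0.147). Ifit2 had 141, 154, 99.2 and 67.4 in C3H/HeJ CFD livers, against 25.6, 12.7, 32.6 and 31.2 in C3H/HeJ control livers, a change of 2.19 ± 0.44 (adjusted p = 0.000603) that was 1.10 under normexp with quantile normalization. Ifit3 rose by 2.68 ± 0.21 in WSB/EiJ and 1.17 ± 0.21 in C3H/HeJ (adjusted p = 1.26e-09 and 0.000189).

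Isg15 is a ubiquitin-like modifier that is attached to proteins during the response, and Usp18 removes it and also restrains the type I receptor. Isg15 had 13000, 11100, 17000 and 10000 in WSB/EiJ CFD livers, against 1800, 1950, 1580 and 2160 in WSB/EiJ control livers. In C3H/HeJ it had 6100, 6860, 5940 and 6410 on CFD, against 3460, 3490, 5170 and 6220 on control. A/J livers had 4820, 3980, 3790 and 2520 on CFD, against 3100, 3860, 2690 and 6580 on control. WSB/EiJ groups stood apart (2.76 ± 0.25, adjusted p = 1.03e-08), while both other strains overlapped and did not pass (0.51 ± 0.25 in C3H/HeJ, adjusted p = 0.1, and -0.05 ± 0.25 in A/J, adjusted p = 0.915). A second Isg15 probe gave 3.00, 0.44 and 0.08.

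Usp18 had 5390, 4240, 6000 and 3770 in WSB/EiJ CFD livers, against 290, 292, 322 and 257 in WSB/EiJ control livers. Its A/J values were 2310, 2020, 1690 and 1220 on CFD, against 856, 1020, 581 and 1530 on control. The A/J groups overlapped through A/J control array 4 and A/J CFD array 4. Its log2 change was 4.04 ± 0.24 in WSB/EiJ (adjusted p = 5.87e-11), 1.04 ± 0.24 in C3H/HeJ (adjusted p = 0.00188) and 0.91 ± 0.24 in A/J (adjusted p = 0.0202). The A/J call was lost without control array 1 or 3 or CFD array 1, 2 or 3 (adjusted p up to 0.114 over all settings).

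Among the Mx GTPases, which trap viral particles, Mx1 rose in WSB/EiJ by at least 3.43-fold (adjusted p = 2.5e-07), since it was not well above background on any WSB/EiJ control array. Its log2 change was 0.70 under normexp with quantile normalization. Mx2 ranged over 951 to 1150 in WSB/EiJ CFD livers, against 477 to 951 in WSB/EiJ control livers, a change of 0.58 ± 0.21 (adjusted p = 0.0167) that was lost without control array 2. Many inbred strains carry defective Mx1 alleles, and whether the probe reads every allele alike was not tested.

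The sensors Ddx58 (RIG-I) and Ifih1 (MDA5) detect viral RNA, Dhx58 (LGP2) tunes them and Zbp1 senses Z-form nucleic acid. Ddx58, Ifih1 and Dhx58 rose in WSB/EiJ by 0.65 ± 0.11, 0.73 ± 0.10 and 1.46 ± 0.16 on the log2 scale. Zbp1 rose in C3H/HeJ by 1.12 ± 0.37 (adjusted p = 0.0192), a call lost without CFD array 1 or 2 (adjusted p up to 0.0592). It had 0.62 ± 0.37 in WSB/EiJ (adjusted p = 0.14), where its second probe gave 2.47. No sensor passed in A/J.

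Among the transcription factors, Irf7, the factor that amplifies type I interferon production, rose in WSB/EiJ. Irf7 had 1430, 1460, 1920 and 1090 in WSB/EiJ CFD livers, against 113, 142, 90.9 and 191 in WSB/EiJ control livers. C3H/HeJ livers had 692, 559, 588 and 646 on CFD, against 590, 477, 791 and 561 on control. In A/J it had 372, 395, 320 and 247 on CFD, against 191, 260, 161 and 356 on control. The log2 change was 3.48 ± 0.24 in WSB/EiJ (adjusted p = 4.16e-10), 0.06 ± 0.24 in C3H/HeJ (adjusted p = 0.861) and 0.51 ± 0.24 in A/J (adjusted p = 0.194). The difference in response was 3.42 ± 0.35 between WSB/EiJ and C3H/HeJ (adjusted p = 1.53e-06) and 2.98 ± 0.35 between WSB/EiJ and A/J (adjusted p = 3.11e-06).

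Stat2, a subunit of the ISRE-binding complex, did not rise under the 75th percentile scaling in any strain. It had 5620, 5310, 5170 and 4970 in WSB/EiJ CFD livers, against 6320, 6740, 7510 and 6390 in WSB/EiJ control livers. Its C3H/HeJ values were 5200, 4770, 5480 and 5740 on CFD, against 4910, 5380, 5010 and 5660 on control. A/J livers had 4910, 4070, 4850 and 4200 on CFD, against 4200, 5790, 4040 and 5470 on control. It fell in WSB/EiJ by 0.35 on the log2 scale (adjusted p = 0.00661), with groups that did not overlap, but the change was 0.16 under quantile normalization and 0.61 under spike-in scaling. The values of 0.02 ± 0.11 in C3H/HeJ and -0.10 ± 0.11 in A/J did not pass (adjusted p = 0.916 and 0.592). Irf9, the DNA-binding subunit, rose in WSB/EiJ by 0.55 ± 0.16 (adjusted p = 0.00519).

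Irf1, a transcription factor that both kinds of interferon induce and a member with a GAS-like match above, did not pass in any strain, but rose in WSB/EiJ under quantile normalization and under spike-in scaling. It had 5200, 5410, 4580 and 6160 in WSB/EiJ CFD livers, against 4600, 3240, 3750 and 7270 in WSB/EiJ control livers. In C3H/HeJ it had 9960, 9550, 7110 and 6280 on CFD, against 5460, 8020, 7610 and 5790 on control. Its A/J values were 7500, 6160, 6070 and 5990 on CFD, against 4000, 5980, 3880 and 6570 on control. The groups overlapped in every strain, and the changes were 0.24 ± 0.22, 0.28 ± 0.22 and 0.37 ± 0.22 in WSB/EiJ, C3H/HeJ and A/J (adjusted p = 0.337, 0.31 and 0.309).

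**Figure D2:**
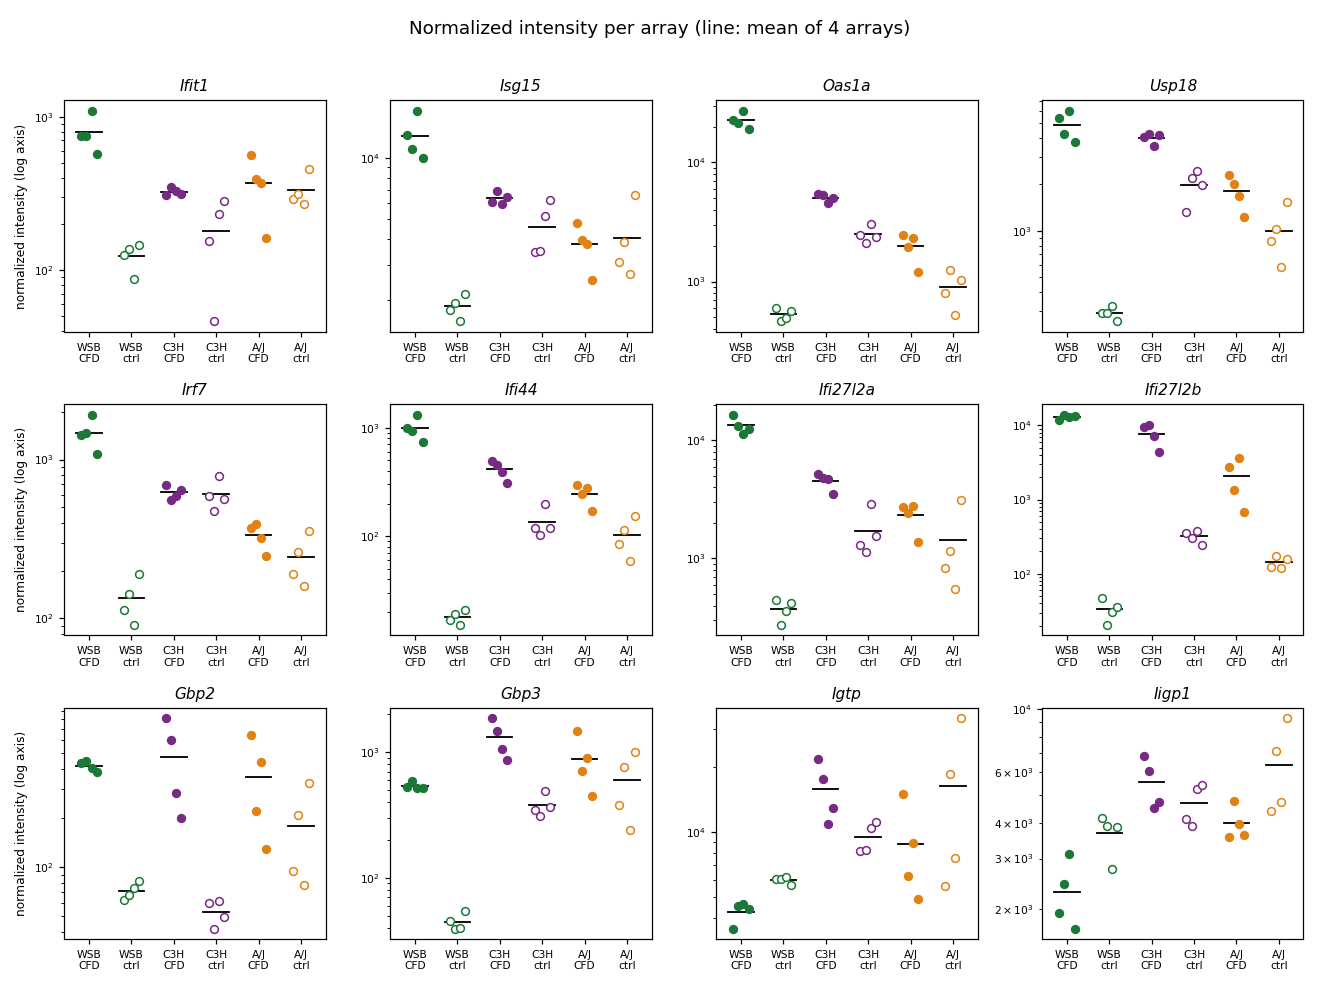
Normalized intensity (log axis, a scale of its own in each panel) of 12 members on each of the 24 arrays, with filled points for CFD and open points for control and a line at the mean of 4 arrays. Oas1a, Usp18, Ifi44 and Ifi27l2b separate by diet most widely in WSB/EiJ, where the mean of their control arrays is the lowest of the 3 strains, whereas Igtp and Iigp1 are lower on CFD in WSB/EiJ, a sign that spike-in scaling turned.

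The remaining type I-like effectors were mostly higher on CFD in WSB/EiJ. Rsad2 (viperin) rose by 2.32 ± 0.31, Isg20, an exonuclease, by 1.67 ± 0.22, Xaf1, a pro-apoptotic factor, by 3.23 ± 0.28 and Parp14, an ADP-ribosyltransferase, by 1.19 ± 0.17. The Xaf1 rise was 2.64 under normexp with quantile normalization. Bst2 (tetherin) and Ifi35 did not pass, with 0.25 ± 0.13 and -0.08 ± 0.10 (adjusted p = 0.0805 and 0.494). In C3H/HeJ Ifi35 fell by 0.26 on the log2 scale (adjusted p = 0.0396), a call lost under quantile normalization and without any of 6 single arrays, and its sign turned under spike-in scaling.

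The gamma-like families parted. The guanylate-binding proteins, which coat intracellular pathogens, rose in WSB/EiJ and C3H/HeJ, whereas none of the 4 IRG GTPases rose in any strain, except under spike-in scaling, where Irgm1 and Ifi47 rose in WSB/EiJ and Irgm1 in C3H/HeJ. Gbp2 had 432, 442, 402 and 383 in WSB/EiJ CFD livers, against 62.7, 67.3, 74.5 and 82.6 in WSB/EiJ control livers. C3H/HeJ livers had 812, 597, 285 and 198 on CFD, against 60, 42.1, 61.7 and 49.3 on control. In A/J it had 643, 221, 437 and 128 on CFD, against 94.4, 207, 78.1 and 328 on control. The log2 change was 2.54 ± 0.47 in WSB/EiJ (adjusted p = 7.58e-05) and 2.95 ± 0.47 in C3H/HeJ (7.72-fold, adjusted p = 7.29e-05), and the overlapping A/J groups gave 1.00 ± 0.47 (adjusted p = 0.183). Under normexp with quantile normalization the Gbp2 changes were 1.84 in WSB/EiJ and 2.08 in C3H/HeJ. Gbp3 had 1860, 1480, 1060 and 870 in C3H/HeJ CFD livers, against 343, 312, 492 and 362 in C3H/HeJ control livers, a change of 1.76 ± 0.36 (adjusted p = 0.000753). In WSB/EiJ Gbp3 rose by 3.59 ± 0.36 (adjusted p = 4.73e-08). That rise was 2.55 under normexp with quantile normalization.

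Igtp (Irgm3), an IRG protein of vacuole and lipid droplet membranes, had 3570, 4530, 4630 and 4410 in WSB/EiJ CFD livers, against 6030, 6050, 6200 and 5700 in WSB/EiJ control livers. Its C3H/HeJ values were 21700, 17600, 10900 and 12900 on CFD, against 8140, 8230, 10400 and 11100 on control. A/J livers had 15000, 6250, 8860 and 4910 on CFD, against 5640, 18600, 7580 and 33700 on control. The WSB/EiJ CFD arrays were all below the control arrays, but the change of -0.49 ± 0.40 did not pass (adjusted p = 0.279), and spike-in scaling turned it to 0.47. A/J control arrays 4 and 2 were above every array but C3H/HeJ CFD array 1, which lay between them, and the A/J change of -0.68 ± 0.40 (adjusted p = 0.294) was 0.02 without both arrays numbered 4. The C3H/HeJ change was 0.70 ± 0.40 (adjusted p = 0.164).

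Iigp1 (Irga6), which attacks the vacuoles of intracellular parasites, had 1930, 2440, 3100 and 1710 in WSB/EiJ CFD livers, against 4140, 3890, 2770 and 3870 in WSB/EiJ control livers. In C3H/HeJ it had 6820, 6080, 4500 and 4720 on CFD, against 4130, 3910, 5260 and 5430 on control. Its A/J values were 3580, 4770, 3970 and 3640 on CFD, against 4390, 7100, 4710 and 9270 on control. It fell in WSB/EiJ by 0.70 on the log2 scale (adjusted p = 0.00893), with groups that overlapped through control array 3, and the change was 0.26 under spike-in scaling. The call was also lost under quantile normalization, alone or with normexp background correction. The values of 0.23 ± 0.22 in C3H/HeJ and -0.62 ± 0.22 in A/J did not pass (adjusted p = 0.409 and 0.0854). Irgm1 and Ifi47 had -0.04 ± 0.25 and 0.11 ± 0.39 in WSB/EiJ and passed in no strain under the scaling used here.

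Averaged per array, the 30 type I-like members were at 2.97 to 3.36 in WSB/EiJ CFD livers, against 0.50 to 0.77 in WSB/EiJ control livers, as log2 signal relative to the 75th percentile. The 4 IRG members were at 3.53 to 4.03 in WSB/EiJ CFD livers, against 3.95 to 4.10 in WSB/EiJ control livers. In A/J the IRG mean was 3.90 to 4.90 on CFD, against 4.03 to 5.90 on control. The type I-like means of WSB/EiJ did not overlap between diets, and the IRG means did. Within the 3 slides, the median log2 change of the type I-like members was 2.55, 3.02 and 2.50 in WSB/EiJ, 0.20, 0.70 and 0.99 in C3H/HeJ, and 0.35, 0.26 and 0.24 in A/J. The C3H/HeJ value was lowest on slide 1, which held CFD arrays 3 and 4 and control array 4. On the measure of diet shift given above these CFD arrays were at 0.90 and 0.58, against 1.17 and 1.26 for CFD arrays 1 and 2. The genes of that measure were chosen partly from these same arrays.

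**Figure D3:**
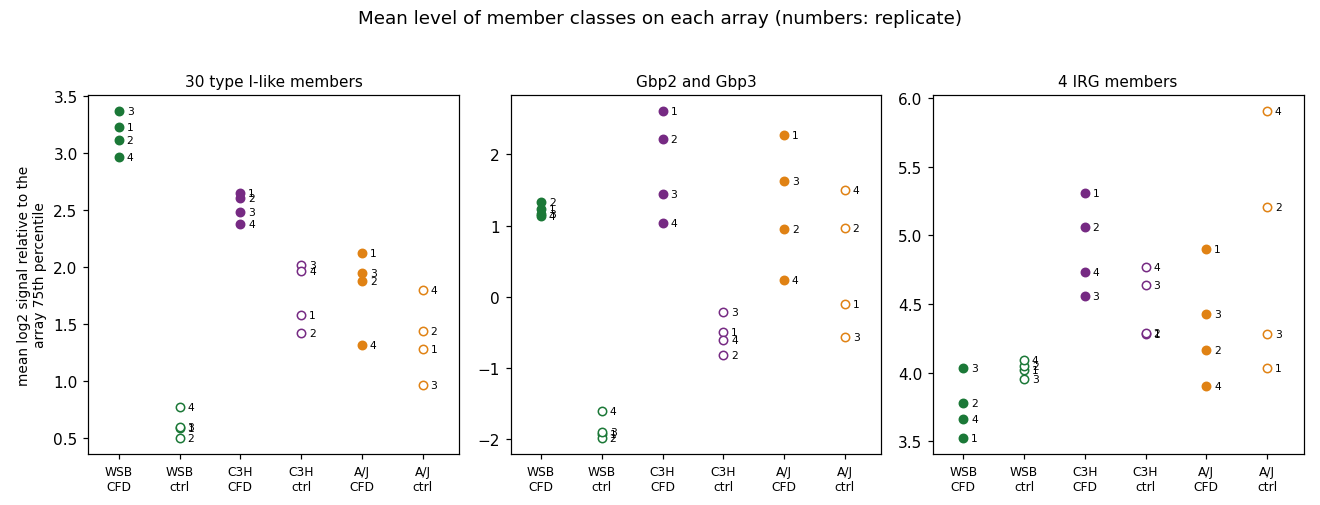
Mean log2 signal, relative to the 75th percentile of the array, of the type I-like members, of Gbp2 and Gbp3, and of the 4 IRG members on each array, numbered by replicate. WSB/EiJ CFD arrays are the highest for the type I-like mean, while A/J control arrays 4 and 2 have high IRG means.

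The diet response differed between WSB/EiJ and both other strains. Against A/J, the change was greater in WSB/EiJ for 27 members and smaller for 1 (17.1% and 32.1% of all genes, 49.2% in either direction), and against C3H/HeJ it was greater for 25 and smaller for 1 (9.32% and 17.1% of all genes, 26.4% in either direction). The type I-like class held 26 of the 27 and 24 of the 25. These counts include Oas1g and Oas3, whose rise in WSB/EiJ was favoured by the background filter. Over the other 35 members the change was greater in WSB/EiJ for 25 against A/J and for 23 against C3H/HeJ, and smaller for 1 in each. Comparisons of strains share the WSB/EiJ arrays. Between C3H/HeJ and A/J, limma called 0 members in either direction (2.16% and 1.34% of all genes, 3.5% in either direction), with 7 at an unadjusted p under 0.05 and the lowest adjusted p, 0.0754, at Ifit3. Oas1a had the largest difference between WSB/EiJ and C3H/HeJ, 4.37 ± 0.31 (adjusted p = 2.26e-08), and 4.24 ± 0.31 between WSB/EiJ and A/J (adjusted p = 3.22e-08). For Ifi27l2b the difference was 4.12 ± 0.53 from C3H/HeJ and 5.04 ± 0.53 from A/J, for Ifi44 it was 4.12 ± 0.37 and 4.44 ± 0.37, and for Ifi27l2a 3.68 ± 0.54 and 4.19 ± 0.54. Under normexp with quantile normalization the difference from C3H/HeJ was 3.09 for Ifi27l2b and 2.55 for Ifi44. Iigp1 was the member whose change was smaller in WSB/EiJ than in C3H/HeJ, by 0.93 (adjusted p = 0.0358), and Oas1b the member whose change was smaller than in A/J, by 0.56 (adjusted p = 0.00708). Both calls were lost under quantile normalization, the Oas1b sign turned under spike-in scaling, and the Iigp1 call was also lost without any of 9 single arrays (adjusted p up to 0.465 over all settings).

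On the control diet, WSB/EiJ livers had lower levels of most members than both other strains. Against C3H/HeJ 24 members were lower and 2 higher in WSB/EiJ (18.3% and 23.3% of all genes, 41.6% in either direction), and against A/J 20 were lower and 4 higher (18.3% and 27.4% of all genes, 45.7% in either direction). C3H/HeJ had 8 members higher and 1 lower than A/J (13.9% and 10.7% of all genes, 24.6% in either direction). The member medians were -0.75, -0.72 and 0.22 on the log2 scale. These comparisons use the control arrays that the diet comparisons use, so they are not independent of them. Whether the probes bind the alleles of the strains alike was not tested, and a second Ifih1 probe gave 1.26 where the probe tested gave -0.49 ± 0.10 between WSB/EiJ and A/J.

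**Figure D4:**
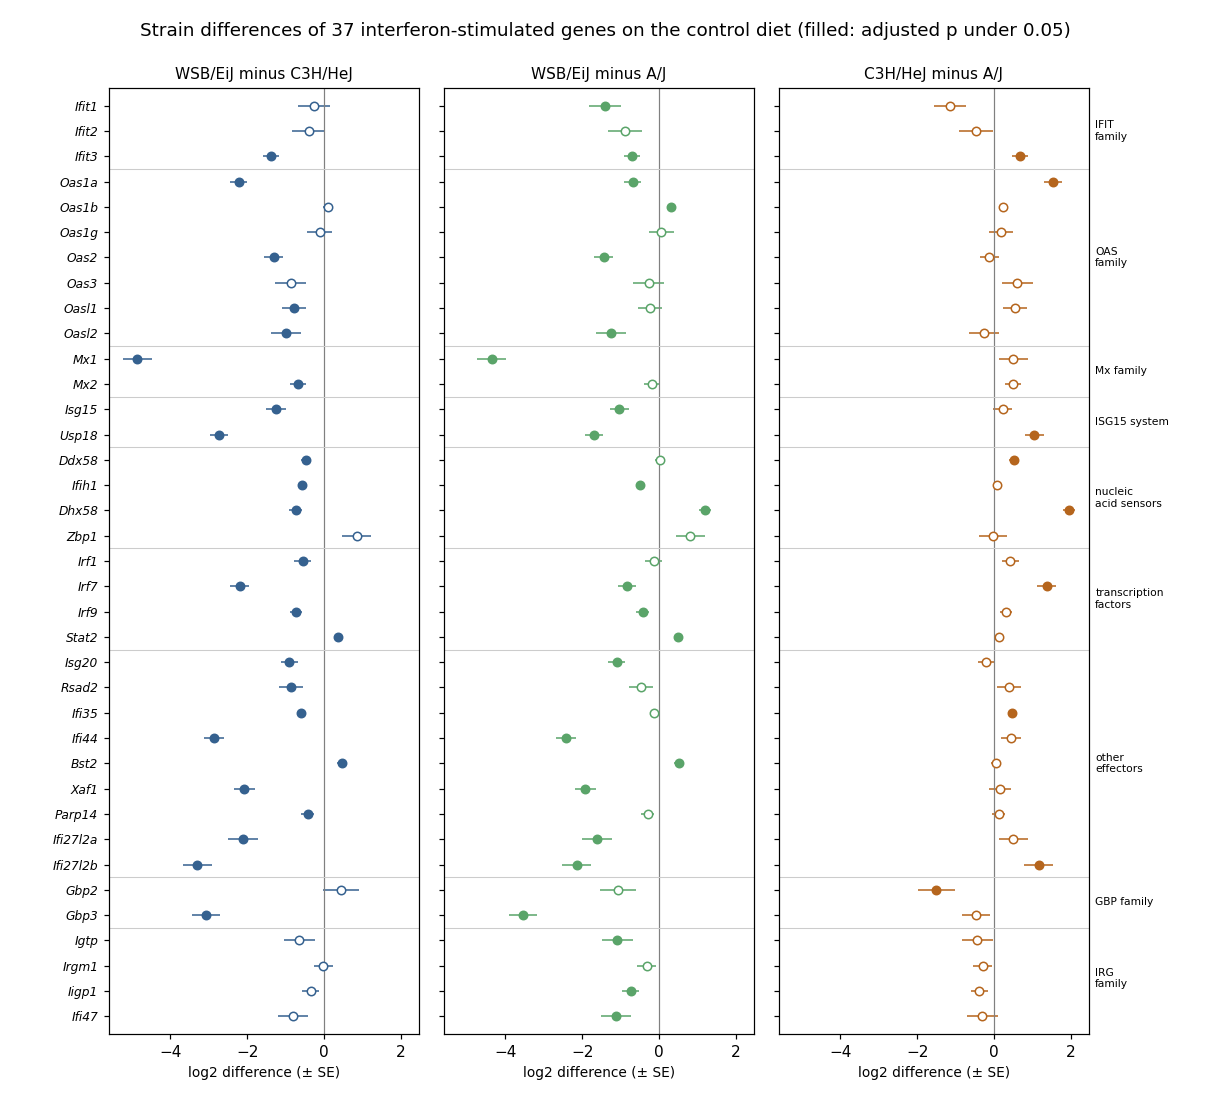
Log2 difference between strains on the control diet (± SE, n = 4 arrays a group) of the 37 members, with filled points for adjusted p under 0.05. Most filled points lie to the left of 0 where WSB/EiJ is compared with C3H/HeJ or A/J, and most filled points lie to the right of 0 for C3H/HeJ against A/J.

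Ifi27l2b was 9.86-fold lower in WSB/EiJ than in C3H/HeJ control livers, with the arrays given above (-3.30 ± 0.37, adjusted p = 4.73e-07), and 4.42-fold lower than in A/J (-2.14 ± 0.37, adjusted p = 8.91e-05). Gbp3 had 45.1, 39.4, 40 and 54.4 in WSB/EiJ control livers, against 343, 312, 492 and 362 in C3H/HeJ and 378, 759, 241 and 996 in A/J control livers. Its differences were -3.07 ± 0.36 from C3H/HeJ and -3.53 ± 0.36 from A/J (adjusted p = 8.77e-07 and 1.26e-07). No WSB/EiJ control array reached the lowest array of the other strains for Gbp3. Ifi44 differed by -2.86 ± 0.26 and -2.43 ± 0.26, and Usp18 by -2.74 ± 0.24 from C3H/HeJ. Xaf1 had 83.5, 64.5, 63.5 and 97.2 in WSB/EiJ control livers, against 284, 293, 188 and 440 in A/J control livers (-1.92 ± 0.28, adjusted p = 1.11e-05). Mx1 was not well above background on any WSB/EiJ control array, at least 10.3-fold below C3H/HeJ and at least 7.32-fold below A/J (adjusted p = 1.86e-09 and 9.87e-09). Under normexp with quantile normalization the difference between WSB/EiJ and C3H/HeJ was -2.10 for Ifi27l2b, -2.08 for Gbp3, -1.30 for Ifi44 and -1.52 for Mx1, all still called.

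Dhx58 ran the other way against A/J. It had 656, 485, 856 and 840 in C3H/HeJ control livers, against 173, 195, 139 and 227 in A/J control livers, a difference of 1.94 ± 0.16 (adjusted p = 1.09e-08). WSB/EiJ control livers, at 387, 430, 427 and 408, were also above A/J, by 1.19 ± 0.16 (adjusted p = 3.94e-06). Oas1a and Irf7 were higher in C3H/HeJ than in A/J, by 1.53 ± 0.22 and 1.36 ± 0.24 (adjusted p = 2.86e-05 and 0.000307). Gbp2 was lower in C3H/HeJ than in A/J, -1.51 ± 0.47 (adjusted p = 0.0237), a call lost without control array 2 or 4 of either strain (adjusted p up to 0.102).

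The interferon genes themselves were dim. Counts of the lists below are to be read beside the shares of all genes given above, 24.6% higher and 47.8% lower in WSB/EiJ, 18.2% and 27.3% in C3H/HeJ, and 6.01% and 4.42% in A/J. Of 16 listed ligands 7 were tested, and Ifnb1 was not well above background on any array. Of the 7 tested, 0 rose in any strain, while 3 fell in WSB/EiJ and 2 in C3H/HeJ. Ifng, the gene of interferon gamma, was not tested, since it was not well above background on all arrays of any group. It was so on no C3H/HeJ control array and on some arrays of every other group, so its diet change is not known. Ifnab, a type I interferon gene, averaged 23.3 in WSB/EiJ CFD livers and 37.5 in WSB/EiJ control livers, both dim. Spike-in scaling added 0.94 to 0.98 to every log2 change in WSB/EiJ, so any fall there of less than 0.94 turned sign. Of 10 genes of the receptors and JAK-STAT signalling, 5 rose and 1 fell in WSB/EiJ, 5 rose and 2 fell in C3H/HeJ, and 3 rose in A/J. Il10rb, a subunit of the interferon lambda receptor, averaged 466 in WSB/EiJ CFD livers and 95.2 in WSB/EiJ control livers, a log2 change of 2.30 ± 0.18 (adjusted p = 1.71e-09). Ifngr1, the ligand-binding subunit of the gamma receptor, rose by 1.92 ± 0.16 in WSB/EiJ, 0.95 ± 0.16 in C3H/HeJ and 0.58 ± 0.16 in A/J. Of 8 brakes on the signal, 4 rose and 2 fell in WSB/EiJ, 3 rose and 1 fell in C3H/HeJ and 0 moved in A/J. The phosphatase Ptpn6 rose by 0.95 ± 0.12 in WSB/EiJ and 0.57 ± 0.12 in C3H/HeJ, and Socs1, an inhibitor of JAK kinases, by 1.97 ± 0.44 in WSB/EiJ and 1.63 ± 0.44 in C3H/HeJ.

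Of 16 genes that sense nucleic acid or microbial products and induce interferon, 6 rose and 4 fell in WSB/EiJ, 4 rose and 4 fell in C3H/HeJ, and 1 rose and 2 fell in A/J. That was 62.5%, 50% and 18.8% of the list, beside 72.4%, 45.5% and 10.4% of all genes. The DNA sensor Cgas rose by 2.03 ± 0.22 in WSB/EiJ, and Tlr4, the lipopolysaccharide receptor, by 2.43 ± 0.27. Irf5, a transcription factor that induces interferon, changed by -0.74 ± 0.15 in WSB/EiJ, -0.94 ± 0.15 in C3H/HeJ and -0.74 ± 0.15 in A/J. Spike-in scaling, which added 0.94 to 0.98 in WSB/EiJ, turned the Irf5 sign there. It added at most 0.47 in C3H/HeJ and 0.41 in A/J, where the Irf5 sign was kept. Of 20 further type I targets, 11 rose and 3 fell in WSB/EiJ, 8 rose and 2 fell in C3H/HeJ, and 3 rose and 1 fell in A/J. Ifi204, a DNA-binding protein of the same response, rose by 3.22 ± 0.20 in WSB/EiJ and 1.70 ± 0.20 in C3H/HeJ. Of 13 further gamma targets tested, 7 rose and 3 fell in WSB/EiJ, 9 rose and 3 fell in C3H/HeJ and 2 rose in A/J. Ubd, a ubiquitin-like modifier, rose by 7.18 ± 0.69 in WSB/EiJ, 8.28 ± 0.69 in C3H/HeJ and 3.77 ± 0.69 in A/J, and was well above background on 3 of 4 control arrays in WSB/EiJ and in C3H/HeJ. Of 15 genes of the immunoproteasome and antigen presentation, 3 rose and 3 fell in WSB/EiJ, 11 rose and 1 fell in C3H/HeJ and 2 fell in A/J. Their response in WSB/EiJ was smaller than in C3H/HeJ for 7 and greater for 0 (17.1% and 9.32% of all genes). H2-Ab1, an MHC class II chain, rose by 3.77 ± 0.53 in WSB/EiJ and 4.54 ± 0.53 in C3H/HeJ. H2-Aa, another class II chain of the list, was not well above background on any WSB/EiJ array on either diet. In C3H/HeJ it was so on no control array and on all CFD arrays.

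Markers of other cells moved with these counts. Of 14 macrophage and monocyte markers tested, 12 rose in WSB/EiJ, 11 in C3H/HeJ and 5 in A/J, and 0 fell. Their summed level over 15 listed genes was 53100 to 58100 in WSB/EiJ CFD livers, against 14400 to 17100 in WSB/EiJ control livers. It was 33900 to 51000 in C3H/HeJ CFD livers, against 18600 to 23700 in C3H/HeJ control livers, and 49300 to 61200 in A/J CFD livers, against 36800 to 57500 in A/J control livers. Cd163 was not well above background in WSB/EiJ livers on either diet. All 12 hepatocyte markers fell in WSB/EiJ, 11 in C3H/HeJ and 1 in A/J, with sums of 1060000 to 1290000 in WSB/EiJ CFD livers, against 2400000 to 2630000 in WSB/EiJ control livers. The part of these shifts in the members' changes was not tested.

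Lymphoid markers moved both ways. Of 11 T and NK cell markers tested, 5 rose and 4 fell in WSB/EiJ, 6 rose and 2 fell in C3H/HeJ and 1 fell in A/J. The summed level of the 14 with a probe was 4850 to 8380 in WSB/EiJ CFD livers, against 10200 to 14900 in WSB/EiJ control livers. A sum weighs bright genes most, and detection went the other way. Of these 14, 11 were well above background on all WSB/EiJ CFD arrays and 6 on all WSB/EiJ control arrays. The NK receptors Klrb1c and Ncr1 were not well above background in WSB/EiJ on either diet. Of 5 plasmacytoid dendritic cell markers, 3 rose and 1 fell in WSB/EiJ, 4 rose and 1 fell in C3H/HeJ and 1 rose in A/J, with sums of 30600 to 33100 in WSB/EiJ CFD livers, against 37800 to 44000 in WSB/EiJ control livers. Of 6 stellate cell markers 5 rose in WSB/EiJ, 4 in C3H/HeJ and 1 in A/J, and of 5 biliary markers 5, 2 and 0 rose. Of 6 endothelial markers 1 rose and 2 fell in WSB/EiJ, 2 rose in C3H/HeJ and 1 rose in A/J. Of 5 neutrophil markers tested 1 rose and 3 fell in WSB/EiJ, 2 fell in C3H/HeJ and 1 fell in A/J, and of 3 B cell markers tested 1 rose, in WSB/EiJ. Their part in the members' changes was not tested either.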

How the data were processed

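Liver RNA of 24 mouse samples was measured on 1-colour Agilent arrays, and Agilent Feature Extraction 10.7 made the files, per the submitters' processing notes. The deposited spot intensity is the background-subtracted, processed signal, per the file headers, with flags for signals well above background, saturated spots and outliers. The authors' deposited table, a signal equal to the processed intensity times a constant for each array, was used as an alternative only.

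The processed intensities were taken as log2 and centred on the 75th percentile of each array, after 3332 outlier-flagged spots were left out. Of 55681 distinct gene probes, 32404 were named, 26716 through an accession, 3814 through a symbol, 639 through a synonym and 1184 as in the file. A probe was kept when all 4 arrays of some group were well above background, and the brightest stood for its gene, which left 15353 genes. The 6 group means were fitted together in limma 3.58.1 (R 4.3.3), and 9 comparisons were taken with Benjamini-Hochberg adjusted p under 0.05 over all genes. With 4 arrays a group, the number of arrays limits the precision. "At least" folds set the brighter group against the lowest signal well above background on each dim array, or the spot's own signal where higher.

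The members and lists were chosen with earlier results of these data known. Named members were, per diet comparison, up to 5 with the largest absolute change among those called and above background on at least 3 arrays of each group, up to 4 in the other comparisons, and Ifit1, Isg15, Oas1a, Irf7, Stat2, Irf1, Gbp2, Igtp and Iigp1 in every strain. Up to 2 genes with the lowest adjusted p were named from each pathway list, and any other was chosen after its values were seen. Alternatives were other scalings, background corrections, filters, probe rules, blocks, thresholds and arrays left out. Slides were 3, each with arrays of every group.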

Additional observations from a re-analysis of the deposited data

Results flagged for a closer look

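On A/J CFD array 1, Irf1 was at 7500, while the other A/J CFD arrays were at 5990 to 6160. On WSB/EiJ control array 3, Iigp1 was at 2770, while the other WSB/EiJ control arrays were at 3870 to 4140. In each case the gap to the nearest array on the log2 scale was larger, as a share of the log2 range of the group, than Dixon's critical value of 0.829 for 4 samples. These were 2 of 102 groups of 4 arrays looked at over 17 members, and Dixon's test at this level is passed by chance in some groups.

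The diet response differed between WSB/EiJ and the other strains by limma's test of the difference. The 4 members below were chosen as those with the largest differences among the members that passed, so that they pass is no further result. On the log2 scale, Ifi27l2b responded more in WSB/EiJ than in A/J by 5.04 and than in C3H/HeJ by 4.12 (adjusted p = 1.17e-06 and 2.34e-05). Ifi44 did so by 4.44 and 4.12 (adjusted p = 9.44e-08 and 4.9e-07), Oas1a by 4.24 and 4.37 (adjusted p = 3.22e-08 and 2.26e-08), and Ifi27l2a by 4.19 and 3.68 (adjusted p = 9.05e-06 and 9.32e-05). On the control diet all 4 were called lower in WSB/EiJ than in either other strain, and on CFD every WSB/EiJ array was above every array of the other strains for all 4.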

How the results depend on the processing

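The count of members called in A/J was 6, and it was 10 under spike-in scaling, 3 with only the groups compared in the fit, 11 with array weights, 13 without both A/J arrays numbered 4, and 4 to 10 with 1 array left out. The difference in response between C3H/HeJ and A/J, at 0, was 1 under normexp with quantile normalization, 2 with array weights and 0 to 2 with 1 array left out. On the control diet, C3H/HeJ against A/J was 9, and 4 under spike-in scaling and 14 with array weights. With a log2 change of at least 1, WSB/EiJ against A/J was 15 and against C3H/HeJ 12. With 1 array left out the counts ran over 13 to 21 in C3H/HeJ, 29 to 31 in WSB/EiJ, 26 to 29 and 23 to 27 for the response of WSB/EiJ against A/J and C3H/HeJ, and 7 to 10, 18 to 26 and 20 to 27 on the control diet for C3H/HeJ against A/J, WSB/EiJ against A/J and WSB/EiJ against C3H/HeJ. The causes were not tested.

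Of 1002 values of named members under other settings, 949 kept direction and call, 21 lost the call, 15 gained it and 17 turned sign. With 1 array left out, 1384 of 1416 kept both. Small changes turned sign. With 1 array left out, Ifit1 in A/J ran over -0.19 to 0.42, Isg15 in A/J over -0.22 to 0.21, Irf7 in C3H/HeJ over -0.047 to 0.20 and Stat2 in C3H/HeJ over -0.024 to 0.065. Isg15 in A/J was 0.017 under quantile normalization, 0.011 under median centring, 0.039 under normexp, 0.29 under spike-in scaling, 0.012 as a mean of probes, 0.16 with array weights and 0.39 without both arrays numbered 4. Stat2 was 0.16, 0.15 and 0.61 in WSB/EiJ under quantile normalization, normexp and spike-in scaling, 0.24 in A/J under spike-in scaling, and in C3H/HeJ -0.013 in the deposited table and -0.02 with slide as a block. Irf7 in C3H/HeJ was -0.12 with array weights. Igtp was 0.022 in A/J without both arrays numbered 4 and 0.47 in WSB/EiJ under spike-in scaling, where Iigp1 was 0.26.

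Replicate numbers did not pair the samples: 7 of 60 same-numbered pairs had a correlation of deviations over 0.1 (median -0.013). With the replicate number as a block the members called were 5 in A/J, 20 in C3H/HeJ, 30 in WSB/EiJ, 0, 28 and 25 for the differences in response (C3H/HeJ against A/J, WSB/EiJ against A/J, WSB/EiJ against C3H/HeJ), and 9, 24 and 23 for the same pairs on the control diet. Members near background, such as Oas3, Oas1g and Mx1, have only bounds in the dim groups.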
